A study of Mus musculus with 8 samples.

Results

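The mRNA abundance of 10 retinoid metabolism genes was examined in the mouse uterus on gestation day 3.5 with and without Nr2f2, the gene of the orphan nuclear receptor COUP-TFII. The genes were taken by symbol and by function, not by their values, and are 10 of the 24963 genes in the table. They encode the retinol carrier receptor Stra6, the retinoic acid binding proteins Crabp1 and Crabp2, the retinol and retinal oxidoreductases Rdh10 and Dhrs3, the retinal dehydrogenases Aldh1a1, Aldh1a2 and Aldh1a3, and the retinoic acid hydroxylases Cyp26a1 and Cyp26b1.

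Retinoic acid is made inside cells from circulating retinol, first by oxidation to retinal and then by an irreversible oxidation to the acid. It acts through the retinoic acid receptors, which bind DNA together with retinoid X receptors at repeated hexamers, and Cyp26 enzymes oxidize it for removal, so a cell's exposure depends on synthesis, binding and degradation together. In the uterus these genes are divided between epithelium and stroma, Cyp26a1 is known from the epithelium around implantation, and COUP-TFII is a mainly stromal factor that binds hexamer repeats of the same family.

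Whole uteri of 4 Nr2f2 f/f and 4 Nr2f2 d/d samples were profiled by RNA-seq. Nr2f2 f/f mice carry 2 floxed alleles and no Cre, are called wild type in the labels and serve as the control. Nr2f2 d/d mice are Pgr Cre/+; Nr2f2 f/f, so the deletion is limited to cells with Pgr expression, and they also carry 1 Pgr allele with the Cre knocked in, which the controls lack: the effects of these alleles cannot be told apart. All females were of the C57B6/J strain by the labels, 8 weeks old at mating by the labels and 2 to 3 months old by the paper's methods, received no treatment, and were mated to vasectomized males and so carried no embryos. The labels do not say whether each library came from a separate mouse, and p-values measure the spread between these samples. Values are FPKM, in which the fragment count is divided by gene length and library total, so that levels of different genes can be set side by side.

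Nr2f2 itself was at 25.3, 21.8, 25.7 and 23.5 FPKM in Nr2f2 f/f replicates 1 to 4 and at 9.66, 9.42, 6.90 and 9.74 FPKM in Nr2f2 d/d replicates 1 to 4. The difference on the log2(FPKM + 0.5) scale was -1.39 (standard error 0.118, adjusted p = 0.00549 from limma), and the groups did not overlap. The depth reckoned from the smallest values was 61500000 to 92700000 fragments per library. Nr2f2 f/f replicate 2 stood apart, with a median correlation of 0.939 to the other libraries of its group across the genes tested, against 0.964 to 0.985 for the other 7 libraries. The epithelium, stroma and smooth muscle marker lists had 0 markers at 0 in all libraries. The summed level of the 12 epithelium markers was 881 to 949.5 FPKM in Nr2f2 f/f and 1179 to 1273 in Nr2f2 d/d, that of 10 endothelium markers was 323 to 437 and 208 to 262. At the study's threshold, a fold of at least 1.4 with an unadjusted p under 0.05, 4 of the 12 epithelium markers were higher and 8 of the 10 endothelium markers lower, against 4.7% higher and 4.1% lower among all genes tested. The 9 ovary markers summed to 18.4 to 22.2 FPKM in Nr2f2 f/f and to 20.3 to 30.4 FPKM in Nr2f2 d/d. Only Fshr among them was at 0 in all libraries, and 3 reached a mean of 0.5 FPKM.

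Of the 10 genes, Crabp2 and Cyp26b1 were higher in every Nr2f2 d/d library than in any Nr2f2 f/f library, and the other 8 overlapped between the groups. Cyp26a1, Crabp2, Crabp1 and Aldh1a2 varied most among libraries of the same genotype, with within-group SDs of 2.18, 1.39, 1.34 and 1.04 on the log2(FPKM + 0.5) scale against a median of 0.181 over all genes tested, and of these 4 only Crabp2 passed a threshold. With limma, 0 of the 9 genes tested had an adjusted p under 0.05, where 2.62% of all 14323 genes tested did, and eBayes without its trend or with robust estimation also gave 0. At the study's threshold 2 of 9 passed, Crabp2 and Cyp26b1, both higher in Nr2f2 d/d, against 8.8% of all genes tested in either direction and 4.7% higher. These were also the 2 genes with an unadjusted p under 0.05, which 21.2% of all genes tested had. Non-overlapping FPKM were found for 15.4% of all genes tested, and for 5.49% with Nr2f2 d/d higher. Crabp2 entered the test only through its Nr2f2 d/d values, since its mean in Nr2f2 f/f was under the filter of 0.5 FPKM, so its call adds nothing to a count. In whole tissue, fewer cells of a type and less RNA per cell cannot be told apart.

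**Figure D1:**
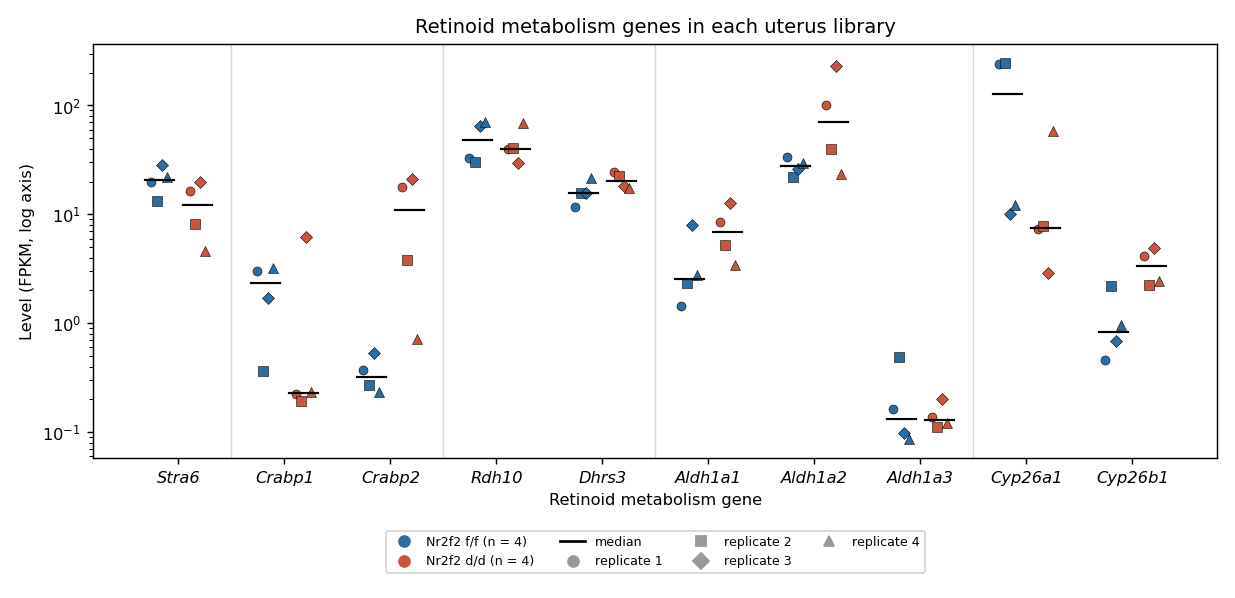
FPKM (log axis) of the 10 retinoid metabolism genes in 4 Nr2f2 f/f (blue) and 4 Nr2f2 d/d (red) libraries, with a marker shape for each replicate and a line at the group median. Crabp2 and Cyp26b1 do not overlap between the groups, and Cyp26a1 of Nr2f2 f/f splits into replicates 1 and 2 at 242 and 247 FPKM and replicates 3 and 4 at 10.1 and 12.2 FPKM.

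Retinol enters cells through Stra6, the membrane receptor of the plasma retinol binding protein. Its gene spans positions 58063788 to 58153996 of chromosome 9, plus strand (mm10, GENCODE vM21, as for all gene positions here). Stra6 was at 19.7, 13.4, 28.7 and 21.9 FPKM in Nr2f2 f/f replicates 1 to 4 and at 16.3, 8.12, 19.7 and 4.61 FPKM in Nr2f2 d/d replicates 1 to 4. Replicates 2 and 4 of Nr2f2 d/d lay below all controls and the other two lay among them. The mean was 12.2 ± 7.01 FPKM in Nr2f2 d/d and 20.9 ± 6.30 FPKM in Nr2f2 f/f (SD, n = 4 each), a log2 difference of -0.90 (standard error 0.436, adjusted p = 0.281 from limma, exact permutation p = 0.171). Stra6 passed the study's threshold without Nr2f2 f/f replicate 2 (log2 difference -1.09, adjusted p = 0.245), without Nr2f2 d/d replicate 1 (-1.10, adjusted p = 0.280) and without Nr2f2 d/d replicate 3 (-1.19, adjusted p = 0.179), and its difference shrank to -0.53 (adjusted p = 0.422) without Nr2f2 d/d replicate 4.

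Crabp2, which carries retinoic acid toward its nuclear receptors, was low in the control uterus. The gene spans positions 87948666 to 87953376 of chromosome 3, plus strand. Its level was 0.369, 0.271, 0.527 and 0.235 FPKM in Nr2f2 f/f replicates 1 to 4 and was 18.0, 3.83, 21.2 and 0.710 FPKM in Nr2f2 d/d replicates 1 to 4. Replicates 1 and 3 of Nr2f2 d/d were high, replicate 2 was intermediate, and replicate 4 was only 1.35 times the highest control. The lowest of these 8 values rests on about 19.1 fragments. The mean was 10.9 ± 10.2 FPKM in Nr2f2 d/d against 0.351 ± 0.131 FPKM in Nr2f2 f/f (SD, n = 4 each), a ratio of means of 31.2. The log2 difference was 3.00 (standard error 0.845, unadjusted p = 0.00716, adjusted p = 0.0998 from limma), and the exact permutation p of 0.0286 is the smallest that 70 arrangements of 4 against 4 can give. With 0.1 or 1 added before the log2 the difference was 3.76 or 2.51. Without Nr2f2 d/d replicate 4 it was 3.83, with an adjusted p of 0.0244 from limma, and with any other library left out the adjusted p was 0.153 to 0.208.

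Crabp1, the paralog of Crabp2 that holds retinoic acid in the cytoplasm, showed the reverse arrangement, with 1 exception. The gene spans positions 54764748 to 54773110 of chromosome 9, plus strand. Crabp1 was at 3.02, 0.364, 1.71 and 3.18 FPKM in Nr2f2 f/f replicates 1 to 4 and at 0.222, 0.192, 6.26 and 0.233 FPKM in Nr2f2 d/d replicates 1 to 4. Replicates 1, 2 and 4 of Nr2f2 d/d lay below every control, and replicate 3 was the highest of all 8 libraries. The mean was 1.73 ± 3.02 FPKM in Nr2f2 d/d and 2.07 ± 1.31 FPKM in Nr2f2 f/f (SD, n = 4 each), a log2 difference of -0.83 (standard error 0.811, adjusted p = 0.592 from limma, exact permutation p = 0.40). With Nr2f2 d/d replicate 3 left out, the log2 difference was -1.64 (standard error 0.487, unadjusted p = 0.0114, adjusted p = 0.135 from limma), which passes the study's threshold, and without Nr2f2 f/f replicate 2 it was -1.29 (adjusted p = 0.414). With Nr2f2 d/d replicate 1, 2 or 4 left out it was -0.57, -0.54 or -0.57 (adjusted p = 0.751 to 0.80), and with Nr2f2 f/f replicate 1, 3 or 4 left out it was -0.61, -0.83 or -0.59. The lowest Crabp1 value rests on about 11.0 fragments.

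The gene of the first step of synthesis stood at rank 2 of the 10 by mean FPKM in both genotypes. Rdh10, which oxidizes retinol to retinal, spans positions 16105774 to 16133734 of chromosome 1, plus strand. It was at 32.6, 30.2, 64.6 and 69.9 FPKM in Nr2f2 f/f replicates 1 to 4 and at 39.6, 40.7, 29.9 and 69.2 FPKM in Nr2f2 d/d replicates 1 to 4. The controls thus split into a lower pair, replicates 1 and 2, and a higher pair, replicates 3 and 4, and the Nr2f2 d/d values spanned the same range. The mean was 44.9 ± 16.9 FPKM in Nr2f2 d/d and 49.3 ± 20.8 FPKM in Nr2f2 f/f (SD, n = 4 each), a log2 difference of -0.10 (standard error 0.347, adjusted p = 0.893 from limma, exact permutation p = 0.83). Its sign turned without Nr2f2 f/f replicate 3 (0.06), Nr2f2 f/f replicate 4 (0.10) or Nr2f2 d/d replicate 3 (0.07).

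Dhrs3, which reduces retinal back to retinol and so works against Rdh10, had the smallest within-group SD of the 9 retinoid metabolism genes tested, 0.289 on the log2 scale, though 73.9% of all genes tested had a smaller one. It spans positions 144892827 to 144928209 of chromosome 4, plus strand. Dhrs3 was at 11.7, 15.8, 15.6 and 21.4 FPKM in Nr2f2 f/f replicates 1 to 4 and at 24.6, 22.4, 18.3 and 17.6 FPKM in Nr2f2 d/d replicates 1 to 4. Replicates 1 and 2 of Nr2f2 d/d lay above all controls, and replicate 4 of Nr2f2 f/f lay above the other two. The mean was 20.7 ± 3.30 FPKM against 16.1 ± 3.96 FPKM (SD, n = 4 each), a log2 difference of 0.37 (standard error 0.181, adjusted p = 0.285 from limma, exact permutation p = 0.143). Without Nr2f2 f/f replicate 4 the log2 difference was 0.51 (adjusted p = 0.160) and passed the study's threshold, and without Nr2f2 f/f replicate 1 it was 0.23 (adjusted p = 0.503).

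Of the retinal dehydrogenases, which form retinoic acid, Aldh1a2 supplied 76.4% to 95.5% of the summed FPKM of the family in each of the 8 libraries. Aldh1a2 spans positions 71215789 to 71296243 of chromosome 9, plus strand. It was at 34.0, 22.1, 26.2 and 29.5 FPKM in Nr2f2 f/f replicates 1 to 4 and at 101, 40.2, 230.3 and 23.3 FPKM in Nr2f2 d/d replicates 1 to 4. Replicates 1, 2 and 3 of Nr2f2 d/d lay above all controls and replicate 4 lay among them. The controls spanned 1.54-fold and the Nr2f2 d/d libraries 9.87-fold. The mean was 98.8 ± 93.9 FPKM in Nr2f2 d/d and 27.9 ± 5.06 FPKM in Nr2f2 f/f (SD, n = 4 each), a log2 difference of 1.30 (standard error 0.631, adjusted p = 0.283 from limma, exact permutation p = 0.143). With Nr2f2 d/d replicate 4 left out, the log2 difference was 1.81 (unadjusted p = 0.00986, adjusted p = 0.122) and passed the study's threshold, and without Nr2f2 d/d replicate 3 it was 0.72 (adjusted p = 0.414).

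Aldh1a1, the next of the family, spans positions 20492715 to 20643465 of chromosome 19, plus strand. It was at 1.44, 2.35, 7.97 and 2.79 FPKM in Nr2f2 f/f replicates 1 to 4 and at 8.57, 5.20, 12.6 and 3.40 FPKM in Nr2f2 d/d replicates 1 to 4. Replicate 3 of Nr2f2 f/f lay within the Nr2f2 d/d range and the other controls lay below it. The mean was 7.44 ± 4.06 FPKM against 3.64 ± 2.94 FPKM (SD, n = 4 each), a log2 difference of 1.02 (standard error 0.510, adjusted p = 0.291 from limma, exact permutation p = 0.143). It passed the study's threshold without Nr2f2 f/f replicate 3 (1.45, adjusted p = 0.135) and without Nr2f2 d/d replicate 4 (1.32, adjusted p = 0.218). The difference was smaller, 0.73 and 0.74, without Nr2f2 d/d replicate 3 (adjusted p = 0.461) or Nr2f2 f/f replicate 1 (adjusted p = 0.512). Aldh1a3, at positions 66390890 to 66427517 of chromosome 7, minus strand, was at 0.163, 0.492, 0.098 and 0.086 FPKM in Nr2f2 f/f replicates 1 to 4 and at 0.138, 0.111, 0.203 and 0.12 FPKM in Nr2f2 d/d replicates 1 to 4. It stayed under the filter of 0.5 FPKM and was not in the limma test, and the exact permutation p was 0.80. Its lowest value rests on about 24.4 fragments.

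Cyp26a1, the main enzyme of retinoic acid removal, had the largest within-group spread of the 9 genes tested. It spans positions 37697798 to 37701536 of chromosome 19, plus strand. Its promoter is shown because its within-group spread was the largest of the 9 genes tested and because, of the 7 genes with a promoter in the table, it alone holds paired hexamers of the kind that retinoic acid receptors bind. The 240 bases before the annotated start, chr19:37697558-37697797 on the plus strand of GRCm38.p6, the assembly known as mm10, are given from RefSeq, 5′ to 3′, with the hexamers in capitals.

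Cyp26a1 promoter: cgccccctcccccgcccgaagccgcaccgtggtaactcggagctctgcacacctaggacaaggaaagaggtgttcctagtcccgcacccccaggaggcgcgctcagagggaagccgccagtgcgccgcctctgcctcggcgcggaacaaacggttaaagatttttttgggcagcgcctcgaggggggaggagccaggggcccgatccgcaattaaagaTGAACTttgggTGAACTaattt

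The search covered both strands of the 250 bases before each RefSeq start for the consensus hexamer AGGTCA, for its common variant GGGTCA and for the further variant form AGTTCA. Repeats were any 2 of them in the same orientation spaced by 1, 2 or 5 bases. No 2 of these hexamers can occupy the same 6 bases of a strand. RefSeq promoters were given for 7 of the 10 genes, at 13 starts, and Aldh1a3, Rdh10 and Crabp2 were not in the table. In Cyp26a1, AGTTCA occurred on the minus strand at 37697776 to 37697781 and at 37697787 to 37697792, with 5 bases between, 32 and 21 bases before the RefSeq start. Such a repeat spaced by 5 was held by 21 of all 32851 promoters of that length, or 0.0639%, and by no other of the 7 genes. A single hexamer was more common, in 32.9% of all promoters, and 1 other gene had one, Aldh1a1, with GGGTCA on the minus strand before its second start. A match describes the letters in the window and does not show binding.

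Cyp26a1 was at 242, 247, 10.1 and 12.2 FPKM in Nr2f2 f/f replicates 1 to 4 and at 7.30, 7.81, 2.91 and 58.9 FPKM in Nr2f2 d/d replicates 1 to 4. The mean of Nr2f2 f/f replicates 1 and 2 was 21.9 times that of replicates 3 and 4. Within Nr2f2 d/d, replicate 4 stood 8.07 times above the median of the other 3, and it lay between the low and the high controls. The other 3 lay below every control. The mean was 19.2 ± 26.5 FPKM in Nr2f2 d/d and 127.9 ± 134.8 FPKM in Nr2f2 f/f (SD, n = 4 each), a log2 difference of -2.32 (standard error 1.32, adjusted p = 0.348 from limma, exact permutation p = 0.171). Of the 14323 genes tested, 12 had a larger within-group SD on the log2 scale than Cyp26a1. Without Nr2f2 d/d replicate 4 the log2 difference was -3.14 (unadjusted p = 0.0430, adjusted p = 0.236), and without Nr2f2 f/f replicate 3 it was -3.09 (unadjusted p = 0.0489, adjusted p = 0.251), and both passed the study's threshold. It was smaller without Nr2f2 f/f replicate 1 or 2, at -1.59 (adjusted p = 0.589) or -1.58 (adjusted p = 0.536).

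Cyp26b1, the second hydroxylase, was far less abundant than Cyp26a1 in the control uterus and was higher in Nr2f2 d/d. It spans positions 84571414 to 84593908 of chromosome 6, minus strand. Cyp26b1 was at 0.460, 2.18, 0.683 and 0.969 FPKM in Nr2f2 f/f replicates 1 to 4 and at 4.19, 2.26, 4.88 and 2.46 FPKM in Nr2f2 d/d replicates 1 to 4. The groups did not overlap, but Nr2f2 f/f replicate 2, the library that stood apart, came close, and the lowest Nr2f2 d/d value was 1.03 times its level. The mean was 3.45 ± 1.29 FPKM in Nr2f2 d/d and 1.07 ± 0.768 FPKM in Nr2f2 f/f (SD, n = 4 each), a ratio of 3.21. The log2 difference was 1.38 (standard error 0.349, unadjusted p = 0.00400, adjusted p = 0.0761 from limma), with an exact permutation p of 0.0286, the smallest possible. Without Nr2f2 f/f replicate 2 it was 1.68 with an adjusted p of 0.0342 from limma, and with any other library left out the adjusted p was 0.0938 to 0.179. Cyp26b1 made up 0.189% to 7.35% of the summed Cyp26a1 and Cyp26b1 FPKM in the controls, 22.4% to 62.6% in Nr2f2 d/d replicates 1 to 3 and 4.02% in Nr2f2 d/d replicate 4.

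**Figure D2:**
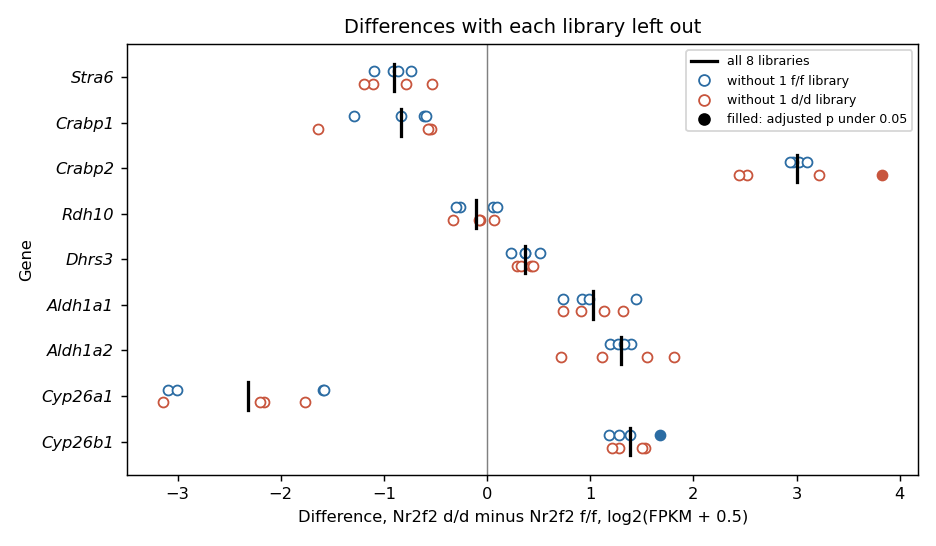
Log2 differences (Nr2f2 d/d minus Nr2f2 f/f, log2(FPKM + 0.5)) of the 9 genes tested with all 8 libraries (black bars) and with each Nr2f2 f/f (blue) or Nr2f2 d/d (red) library left out. Filled points have an adjusted p under 0.05, which occurred for Crabp2 without Nr2f2 d/d replicate 4 (3.83) and for Cyp26b1 without Nr2f2 f/f replicate 2 (1.68), and Rdh10 lies on both sides of 0.

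By mean FPKM the order in the control uterus was Cyp26a1, Rdh10, Aldh1a2, Stra6, Dhrs3, Aldh1a1, Crabp1, Cyp26b1, Crabp2 and Aldh1a3. The ranges of neighbors in this order overlapped except those of Dhrs3 and Aldh1a1, with 16.1 ± 3.96 and 3.64 ± 2.94 FPKM. In Nr2f2 d/d the order was Aldh1a2, Rdh10, Dhrs3, Cyp26a1, Stra6, Crabp2, Aldh1a1, Cyp26b1, Crabp1 and Aldh1a3, and the ranges of neighbors overlapped except those of Rdh10 and Dhrs3, with 44.9 ± 16.9 and 20.7 ± 3.30 FPKM. Cyp26a1 thus stood at rank 1 in the controls and rank 4 in Nr2f2 d/d, and Crabp2 at ranks 9 and 6. The ranks varied between libraries. Cyp26a1 had rank 1 in controls 1 and 2 and rank 5, below Rdh10, Aldh1a2, Stra6 and Dhrs3, in controls 3 and 4. Within Nr2f2 d/d its rank was 7, 5, 9 and 2 in replicates 1 to 4, and that of Crabp2 was 4, 7, 3 and 8, against 9 or 10 in the controls. As a description of each library, the summed FPKM of the 3 Aldh1a genes was 0.10 to 0.147 times that of the 2 Cyp26 genes in Nr2f2 f/f replicates 2 and 1 and 2.46 to 3.17 times in Nr2f2 f/f replicates 4 and 3. The ratio was 9.59, 4.52, 31.2 and 0.438 in Nr2f2 d/d replicates 1 to 4. In this ratio Nr2f2 d/d replicate 4 lay between the high and the low Cyp26a1 controls, and the other Nr2f2 d/d libraries lay above all controls.

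**Figure D3:**
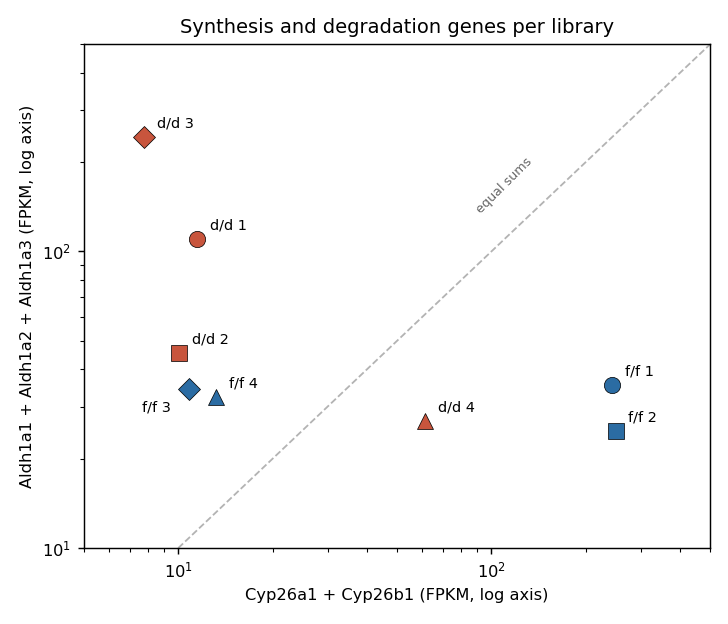
Summed FPKM of Aldh1a1, Aldh1a2 and Aldh1a3 against that of Cyp26a1 and Cyp26b1 in each library (both axes log, dashed line at equal sums). Nr2f2 f/f replicates 1 and 2 and Nr2f2 d/d replicate 4 lie below the line, with ratios of 0.147, 0.10 and 0.438, and the other 5 libraries lie above it.

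The Nr2f2 d/d libraries were ranked alike by several of the genes, while in the controls each of the 10 genes had its own order. Within Nr2f2 d/d, Aldh1a1, Aldh1a2, Crabp2 and Stra6 all ran from replicate 3 as the highest through 1 and 2 to 4 as the lowest, and Cyp26a1 and Rdh10 ran in exactly the opposite order. The spread along this order was 9.87-fold for Aldh1a2 and 29.8-fold for Crabp2. Cyp26b1, Aldh1a3, Crabp1 and Dhrs3 followed neither this order nor its reverse. With 4 libraries these orders are a description and carry no test. The summed level of the 11 stroma markers, 0 of them at 0, had the same order, with 5032, 3238, 2881 and 2596 FPKM in Nr2f2 d/d replicates 3, 1, 2 and 4, against 1839 to 2149 FPKM in Nr2f2 f/f. So had that of the 11 mesothelium markers measured, 0 of them at 0, with 402, 392, 386 and 320.0 FPKM, against 233 to 281 FPKM in Nr2f2 f/f. At the study's threshold 5 of 11 stroma markers were higher and 2 lower, and 5 of 11 mesothelium markers were higher and 0 lower, where 4.7% of all genes tested were higher and 4.1% lower. The part of these cell types in the values of Crabp2 and the Aldh1a genes was not tested.

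The high Cyp26a1 libraries also had other retinoid genes high. Cyp26c1, the third gene of the family, ends 4399 bases before the start of Cyp26a1 on the same strand, and Lrat forms the retinyl esters in which cells store retinol. Both were chosen after their values were seen. Cyp26c1 was at 8.90, 6.69, 0.346 and 0.950 FPKM in Nr2f2 f/f replicates 1 to 4 and at 0.447, 0.468, 0.236 and 2.57 FPKM in Nr2f2 d/d replicates 1 to 4. Lrat was at 18.5, 1.98, 0.235 and 0.346 FPKM in the controls and at 0.484, 0.474, 0.518 and 3.66 FPKM in Nr2f2 d/d. For all 3 genes the controls 1 and 2 were the 2 highest of their group and replicate 4 was the highest of Nr2f2 d/d. The log2 differences between the groups were -1.33 for Cyp26c1 (adjusted p = 0.390 from limma) and -0.71 for Lrat (adjusted p = 0.729), neither past a threshold. The summed level of the 9 gland markers, 0 of them at 0, was 688, 3329.8, 305 and 248 FPKM in Nr2f2 f/f replicates 1 to 4 and was 137, 145, 85.6 and 190.5 FPKM in Nr2f2 d/d replicates 1 to 4, with 2 of the 9 lower and 0 higher at the study's threshold, so it too was highest in controls 1 and 2 and, within Nr2f2 d/d, in replicate 4. The summed level of the 10 T and NK cell markers measured, 0 of them at 0, was 68.4 to 90.9 FPKM in the controls and 192, 232, 105 and 405 FPKM in Nr2f2 d/d replicates 1 to 4, highest in the Nr2f2 d/d library with the most Cyp26a1, and 6 of these 10 were higher at the study's threshold. Among all genes tested, 4.7% were higher and 4.1% lower at that threshold. The summed levels of 10 smooth muscle and 7 oviduct markers, 0 of them at 0, were also highest in Nr2f2 d/d replicate 4 within their group. For smooth muscle they were 1467, 1308, 1546 and 1836 FPKM in the controls and 1047, 1794, 1401 and 2574 FPKM in Nr2f2 d/d. For the oviduct they were 116, 81.0, 88.7 and 92.3 FPKM in the controls and 91.7, 105, 69.6 and 139.7 FPKM in Nr2f2 d/d. Within Nr2f2 d/d the gland, the T and NK cell and the oviduct markers all had the library order of Cyp26a1. Within the controls none of these lists had its order. The 12 epithelium markers summed to 927, 949.5, 881 and 883 FPKM in the controls, the order of Cyp26a1 there. In Nr2f2 d/d they summed to 1273, 1179, 1205 and 1264 FPKM, which is not its order. The part of any of these cell types in the Cyp26a1 values was not tested.

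**Figure D4:**
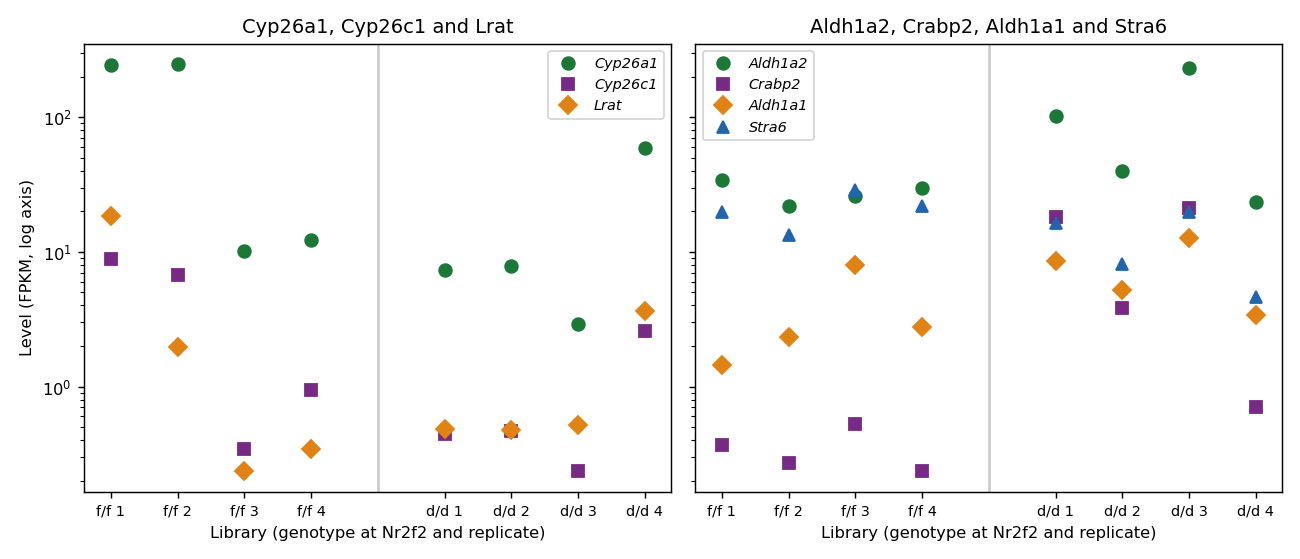
FPKM (log axis) of Cyp26a1, Cyp26c1 and Lrat (left) and of Aldh1a2, Crabp2, Aldh1a1 and Stra6 (right) in the 4 Nr2f2 f/f and 4 Nr2f2 d/d libraries. On the left the controls 1 and 2 and Nr2f2 d/d replicate 4 are high in their groups, and on the right the Nr2f2 d/d libraries run from replicate 3 (230.3 FPKM of Aldh1a2) to replicate 4 (23.3 FPKM).

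Beyond the 10 genes, 66 genes of 6 retinoid lists were followed, of which 65 were in the table, 1 (Cyp2c39) was at 0 in all libraries and 46 passed the filter. Of these 46, 2 were higher and 1 lower with an adjusted p under 0.05 from limma, against 1.09% and 1.53% of all genes tested. Adh7, which is among those higher, adds nothing to this count or the next, since its mean in Nr2f2 f/f was under the filter. At the study's threshold 7 were higher and 3 lower, against 4.7% and 4.1% of all genes tested. The median log2 difference of the 46 was 0.04, beside -0.02 over all genes tested.

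Among the 15 other retinol and retinal oxidoreductases tested, Adh7 and Adh1 were higher at the study's threshold and 0 were lower. The shares of all genes tested were 4.7% and 4.1%. Adh7 adds nothing to this count either, since its mean in Nr2f2 f/f was under the filter. The median log2 difference of the list was 0.09. Adh7, a class IV alcohol dehydrogenase that oxidizes retinol, was at 0.282, 0.359, 0.494 and 0.555 FPKM in Nr2f2 f/f replicates 1 to 4 and at 3.67, 2.67, 5.09 and 1.47 FPKM in Nr2f2 d/d replicates 1 to 4. Every Nr2f2 d/d library was above every control. Adh7 rose by 1.92 on the log2 scale (standard error 0.296, adjusted p = 0.0217 from limma), and it was tested only through its Nr2f2 d/d values. Its adjusted p was 0.0726 without Nr2f2 f/f replicate 1, 0.0571 without Nr2f2 f/f replicate 4, 0.0707 without Nr2f2 d/d replicate 1 and 0.0724 without Nr2f2 d/d replicate 2. Adh1, the class I enzyme, was at 11.7 to 28.0 FPKM in Nr2f2 f/f and at 37.6 to 83.1 FPKM in Nr2f2 d/d without overlap (log2 difference 1.32, adjusted p = 0.0696). Adh5, the most abundant of the list, was at 69.6 ± 24.4 and 77.5 ± 14.3 FPKM (SD, n = 4 each; log2 difference 0.21, adjusted p = 0.687). Antisense transcripts share 6.09% of the exon bases of Adh1 and 2.85% of those of Adh7.

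Among 10 genes tested for retinol uptake, binding and storage, 3 were higher and 1 lower at the study's threshold (4.7% and 4.1% of all genes tested), with a median log2 difference of 0.43. Lpl, the lipoprotein lipase that also frees retinol from circulating retinyl esters, was at 3.68, 4.78, 5.36 and 6.75 FPKM in Nr2f2 f/f replicates 1 to 4 and at 14.2, 16.2, 27.9 and 11.2 FPKM in Nr2f2 d/d replicates 1 to 4. The groups did not overlap. Lpl rose by 1.61 on the log2 scale (standard error 0.277, adjusted p = 0.0289 from limma), but it kept an adjusted p under 0.05 in only 2 of the 8 fits that left out 1 library, those without Nr2f2 d/d replicates 3 (0.0342) and 4 (0.0279). The other 6 gave 0.0819, 0.0533, 0.0589 and 0.0571 when Nr2f2 f/f replicate 1, 2, 3 or 4 was left out, and 0.0735 or 0.0927 when Nr2f2 d/d replicate 1 or 2 was. Rbp4, the plasma carrier that Stra6 receives, was at 1.79 to 2.68 FPKM in Nr2f2 f/f and at 3.27 to 6.49 FPKM in Nr2f2 d/d, without overlap (log2 difference 0.93, adjusted p = 0.0517), and with quantile normalization it passed (0.95, adjusted p = 0.0459). Rbp7, a cellular retinol binding protein, had 2.84 ± 0.645 and 4.81 ± 1.45 FPKM (SD, n = 4 each; log2 difference 0.65, adjusted p = 0.131), and without Nr2f2 d/d replicate 3 its difference of 0.48 was under a fold of 1.4. Ttr, the partner of Rbp4 in plasma and also one of the gland markers, had 2.03 ± 1.15 and 0.664 ± 0.418 FPKM (SD, n = 4 each; log2 difference -1.03, adjusted p = 0.214). It passed the study's threshold without Nr2f2 f/f replicate 2 (unadjusted p = 0.00135 from limma) or Nr2f2 d/d replicate 3 (0.0232), but not with any other library left out (0.0699 to 0.105).

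Scarb1, the receptor that takes up carotenoids and lipoprotein lipids, was the 1 of 3 genes tested for carotenoid cleavage and uptake past the adjusted threshold. Of all genes tested, 1.09% were higher and 1.53% lower at that threshold, and 4.7% and 4.1% at the study's. Scarb1 was at 42.0, 43.5, 32.6 and 31.4 FPKM in Nr2f2 f/f replicates 1 to 4 and at 16.5, 14.7, 21.9 and 18.1 FPKM in Nr2f2 d/d replicates 1 to 4. Every Nr2f2 d/d library was below every control. Scarb1 fell by 1.05 on the log2 scale (standard error 0.152, adjusted p = 0.0192 from limma), and the adjusted p was 0.0660, 0.0645 and 0.0656 without Nr2f2 f/f replicate 1, Nr2f2 d/d replicate 1 and Nr2f2 d/d replicate 2. Cd36, a scavenger receptor of the same family, had 2.49 ± 0.232 and 4.54 ± 2.25 FPKM (SD, n = 4 each; log2 difference 0.66, adjusted p = 0.228) and passed the study's threshold. This call was kept without Nr2f2 d/d replicate 3 (log2 difference 0.89, unadjusted p = 0.00518 from limma) and lost with any other library left out (unadjusted p = 0.0553 to 0.0979), and without Nr2f2 d/d replicate 4, the highest at 7.65 FPKM, the difference was 0.39. Of 4 genes tested for other oxidation and delivery of retinoic acid, Fabp5, a fatty acid binding protein that can also bind retinoic acid, was higher at the study's threshold, with 18.7 ± 5.70 and 41.4 ± 19.2 FPKM (SD, n = 4 each; log2 difference 1.05, adjusted p = 0.153), a call lost without Nr2f2 f/f replicate 2 (unadjusted p = 0.0502 from limma) or Nr2f2 d/d replicate 3 (0.0506). Aox1, an aldehyde oxidase able to oxidize retinal, was lower at that threshold, with 5.44 ± 2.40 and 2.32 ± 0.363 FPKM (SD, n = 4 each; log2 difference -1.0, adjusted p = 0.0739), and its groups did not overlap.

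**Figure D5:**
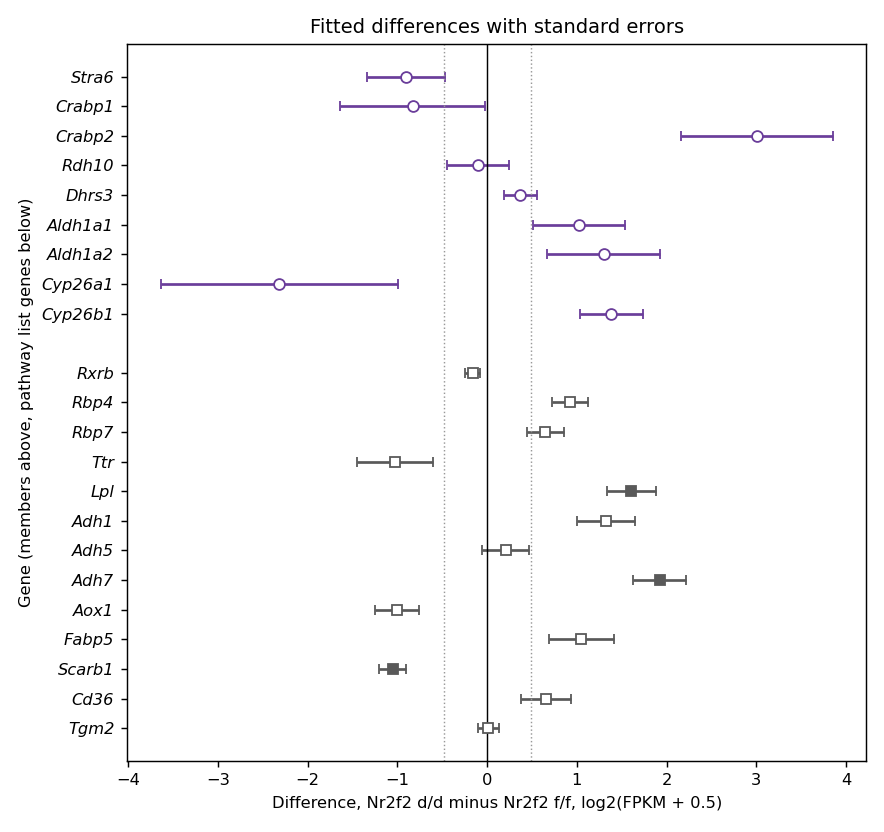
Log2 differences (Nr2f2 d/d minus Nr2f2 f/f, log2(FPKM + 0.5)) with standard errors for the 9 genes tested (circles) and the named genes of the retinoid lists (squares), with dotted lines at a fold of 1.4. Filled symbols have an adjusted p under 0.05, which are Adh7 (1.92), Lpl (1.61) and Scarb1 (-1.05).

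The last 2 lists hold the receptors of retinoic acid and further genes known to respond to it. The second leaves out the 10 genes described above, some of which are themselves known to respond to retinoic acid, Cyp26a1, Cyp26b1 and Crabp2 among them. Of the 6 receptor genes, 5 were tested, 0 passed either threshold and 1 had an unadjusted p under 0.05 (Rara), where 21.2% of all genes tested did, with log2 differences from -0.16 to 0.26 and a median of 0.01. Rxrb, the most abundant, was at 19.0 ± 2.06 FPKM in Nr2f2 f/f and 16.8 ± 0.761 FPKM in Nr2f2 d/d (SD, n = 4 each; log2 difference -0.16, adjusted p = 0.311), without overlap. Of the 18 further retinoic acid responsive genes, 13 were tested, 0 passed either threshold and 4 had an unadjusted p under 0.05 (Rarres2, Nrip1, Meis1 and Rai14), with a median log2 difference of 0.01. Tgm2, a transglutaminase and the most abundant of them, was at 168.4 ± 29.0 and 168.6 ± 10.2 FPKM (SD, n = 4 each; log2 difference 0.01, standard error 0.122, adjusted p = 0.959), and other annotated genes share 21.8% of its exon bases. Rarb and Rarg stand in both lists.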

How the data were processed

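RNA of whole uteri was sequenced as 76-bp read pairs on an Illumina NextSeq system. The authors trimmed reads with cutadapt 1.12, aligned them to mm10 with STAR 2.5.2b and counted them per gene with featureCounts 1.5.0-p1. They deposited FPKM per gene and library. The submitters' processing notes also list Cufflinks 2.0.2 with no role, and the annotation, strand setting and FPKM formula are not given in the sources used here. The authors' test, DESeq2 on counts, was not repeated, since FPKM are not counts.

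The table lists 24963 genes, 3893 at 0 in all 8 libraries. The 14323 genes whose mean reached 0.5 FPKM were tested on log2(FPKM + 0.5), which understates changes of low genes, with limma 3.58.1 in R 4.3.3 (lmFit, eBayes with trend, two-sided, Benjamini-Hochberg). Single genes were also compared by two-sided exact permutation tests, run for 76 genes and unadjusted. On simulated data for the same 14323 genes, 164 of 200 changed genes were called, with 16 unchanged genes. The simulation used independent normal noise for each gene and changes of fixed sizes. Its share of changed genes called covers genes of all spreads and need not hold for genes as variable as Cyp26a1. Depth was recovered from single-exon genes, and fragment numbers cover counting error only. Gene positions are from GENCODE vM21.

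The 10 genes, the retinoid lists and the marker lists were chosen with earlier results of these data known. Named are the 10 genes, Nr2f2, the list genes past either threshold and the most abundant gene of each list, and other names were chosen after their values were seen. Some results are not reported here. Alternatives were the added value (0.1 and 1), filters, 2 scalings, eBayes settings, replicate blocks and each library left out.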

Additional observations from a re-analysis of the deposited data

Results flagged for a closer look

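In each group of 4 libraries the highest and lowest values of the genes named with values were compared with their neighbors by Dixon's 95% criterion. For the members, Nr2f2 and the genes named by rule, 3 of 48 groups had a value that stood apart, and chance gives about 1 in 20 groups. The other 4 values belong to genes picked after their values were seen and are not set against chance. Within Nr2f2 d/d, replicate 4 stood apart for Cyp26a1 (58.9 FPKM), Cyp26c1 (2.57 FPKM), Lrat (3.66 FPKM) and Sdr16c6 (6.16 FPKM), each time as the highest. Replicate 3 of Nr2f2 d/d stood apart as the highest for Crabp1 (6.26 FPKM) and as the lowest for Nr2f2 (6.90 FPKM). Among the controls, replicate 1 stood apart as the highest for Lrat (18.5 FPKM). Cyp26c1, Lrat, Sdr16c6 and Rdh12 were picked for this likeness to Cyp26a1, so their values add no independent support to it. No cause was tested.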

How the results depend on the processing

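Over 18 alternatives, the log2 differences of the 9 genes tested kept their sign in 159 of 162 cases, and the exceptions were those of Rdh10 given above. Crabp2 and Cyp26b1 passed the study's threshold with all alternatives run. The number of the 9 genes with an adjusted p under 0.05 was 0, except that it ranged from 0 to 1 with each library left out. The number past the study's threshold, 2, ranged from 2 to 5 with each library left out. All genes past that threshold numbered 1260 with all libraries and 1082 to 1442 with each library left out, 1442 in the fit that gave 5. The 3 list genes past the adjusted threshold became 4 with quantile normalization, when Rbp4 passed, and 0 to 3 with each library left out, and the 375 genes in all became 42 to 348. Fewer libraries leave fewer degrees of freedom, and the part of single libraries was not tested further.

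Deviations of same-numbered libraries correlated at -0.204, -0.172, 0.0452 and -0.0403 for the title numbers 1 to 4. For the numbers 1, 3 and 5 of the descriptions they correlated at -0.204, 0.149 and -0.0403. So few correlations cannot decide whether the replicate numbers pair the libraries. With the title numbers as a replicate block, 4 of the 9 genes passed the study's threshold (Aldh1a1, Crabp2, Cyp26b1 and Stra6). So did 1243 of all 14323 genes tested. The adjusted threshold was passed by 0 list genes and 1 gene in all. That gene was not Nr2f2, which kept its log2 difference of -1.39 with an adjusted p of 0.07135 from limma. With the description numbers as a replicate block over 6 libraries, 4 passed the study's threshold (Crabp1, Crabp2, Cyp26b1 and Stra6). Of all 14273 genes tested in that fit, 1317 did. The adjusted threshold was passed by 0 list genes and 0 genes in all, and Nr2f2 had a log2 difference of -1.325 (adjusted p = 0.0609 from limma). Crabp2 adds nothing to either count of 4, as it was tested only through its Nr2f2 d/d values. The median log2 difference of all genes was -0.02 as deposited and 0.01 and -0.02 with the other 2 scalings. Of the genes with an adjusted p under 0.05, 192 of 364 were higher after median-ratio scaling and 156 of 375 as deposited.

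FPKM are relative to each library's total. Crabp1, Crabp2 and Aldh1a3 rest on few fragments in some libraries, where counting error is large, and 4 libraries per group with the spread seen for Cyp26a1 and Aldh1a2 leave wide standard errors.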

Other observations

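Sdr16c6 and Rdh12, further retinol dehydrogenases of the lists, were named after their values were seen. Sdr16c6 was at 6.30, 9.36, 1.35 and 2.05 FPKM in Nr2f2 f/f replicates 1 to 4 and at 0.617, 0.962, 0.073 and 6.16 FPKM in Nr2f2 d/d replicates 1 to 4. Rdh12 was at 3.62, 6.27, 1.81 and 1.28 FPKM in the controls and at 1.68, 1.95, 2.49 and 5.91 FPKM in Nr2f2 d/d. In both, controls 1 and 2 were the 2 highest of their group and replicate 4 was the highest of Nr2f2 d/d, as for Cyp26a1. The log2 differences between the groups were -1.42 (adjusted p = 0.348 from limma) for Sdr16c6 and -0.04 (adjusted p = 0.971) for Rdh12.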
